A study of Mus musculus with 123 samples.

Results

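The cytosolic ribosomal proteins were followed in single cardiomyocytes (CMs) of the developing mouse heart. Members were the gene symbols of the count table that start with Rpl or Rps and a number, with Rplp0, Rplp1, Rplp2 and Rpsa, leaving out the S6 kinases and symbols marked -ps as pseudogenes. This gave 86 members of 23337 symbols, chosen by name and not by any measured value. Of these, 31 are canonical proteins of the small (40S) subunit and 46 of the large (60S) subunit. The other 9 are paralogs or related symbols: Rpl3l, Rpl7l1, Rpl10l, Rpl22l1, Rpl36al, Rpl39l, Rps27l, Rps4y2 and Rps19bp1, a protein that binds Rps19.

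The study captured αMHC+ cells from the hearts of mice of the strain αMHC-GFP, in which the promoter of the alpha myosin heavy chain gene drives green fluorescent protein. Hearts were taken at embryonic days E9.5 (42 cells) and E12.5 (29 cells) and at postnatal day 1 (P1, 52 cells). Every cell carries the transgene, no cell was treated, and cells were sorted for this reporter, though a few kept cells had hardly any counts of cardiomyocyte markers, as described further on. E9.5 and E12.5 hearts were digested with collagenase and P1 hearts with Liberase, so the enzyme and the switch from embryo to newborn cannot be told apart. No animal, litter or chip is named in the labels, which leaves 1 sample for each time point, and differences are given with their sizes and without tests. The cell titles fall into naming sets, called here by how they begin: set C at all ages, N530 at E9.5, N523 at E12.5, and a single E12.5 cell titled E12-5b. What separates these sets is not stated in the labels, and the range over the combinations of sets with at least 6 cells is given as the spread.

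Each ribosome carries a single copy of most of these proteins, built around ribosomal RNA in the nucleolus, with the 40S subunit reading the mRNA and the 60S subunit joining amino acids. Genes of this family are among the most highly transcribed in growing cells. Their mRNAs typically open with a C followed by a run of pyrimidines, the TOP motif, through which translation of the whole set is tuned to growth signals. Most are housekeeping genes, but a few paralogs are tissue-restricted, and Rpl3l, the striated muscle paralog of Rpl3, is one of them.

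The bases around the annotated start are shown for members that the results turn on, because the run at the start is the feature by which the family is usually recognised. Each line holds 15 bases before the start and 15 from it, 5′ to 3′ on the gene's strand, from RefSeq on GRCm38.p6. Capitals mark a run of C and T, from its first C, in which a C within 3 bases of the start is followed by at least 5 more C or T. Members that were higher at P1 than at E9.5 come first, then those that were lower, then Rps18, Rps27 and the muscle paralog Rpl3l, and Rpl10a and Rpl3l are shown with 2 annotated starts each.
Rpl9 (chr5:65391417-65391446, minus strand): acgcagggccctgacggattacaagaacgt
Rpl24 (chr16:55966260-55966289, plus strand): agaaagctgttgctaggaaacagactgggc
Rpl6 (chr5:121204486-121204515, plus strand): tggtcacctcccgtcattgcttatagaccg
Rps4x (chrX:102189377-102189406, minus strand): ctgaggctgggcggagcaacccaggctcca
Rpl7l1 (chr17:46782642-46782671, minus strand): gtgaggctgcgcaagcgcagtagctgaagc
Rpl27a (chr7:109519180-109519209, plus strand): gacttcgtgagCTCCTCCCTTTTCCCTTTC
Rpl12 (chr2:32961697-32961726, plus strand): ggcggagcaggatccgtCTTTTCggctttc
Rps23 (chr13:90923107-90923136, plus strand): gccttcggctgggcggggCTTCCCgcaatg
Rpl37a (chr1:72711245-72711274, plus strand): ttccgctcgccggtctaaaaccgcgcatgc
Rpl10a, first start (chr17:28328456-28328485, plus strand): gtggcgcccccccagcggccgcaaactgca
Rpl10a, second start (chr17:28328550-28328579, plus strand): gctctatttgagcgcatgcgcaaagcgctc
Rps18 (chr17:33955651-33955680, minus strand): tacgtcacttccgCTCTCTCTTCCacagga
Rps27 (chr3:90213634-90213663, minus strand): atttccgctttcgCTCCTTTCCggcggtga
Rpl3l, first start (chr17:24727811-24727840, plus strand): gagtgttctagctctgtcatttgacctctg
Rpl3l, second start (chr17:24732670-24732699, plus strand): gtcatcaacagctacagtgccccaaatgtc

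Of the 86 members, 65 had an entry in the RefSeq promoter table, and 24 of the 65 (36.9%) held such a run, against 2304 of 27025 genes (8.53%). The ETS-type sequence CCGGAAG or its reverse complement CTTCCGG stood in the 300 bases from 250 before the start onward in 40% of the members and 9.93% of all genes. CACGTG, the E-box, was about as frequent in the members (9.23%) as in all genes (8.09%), and TATAAA between 40 and 21 bases before the start was rare in both (1.54% and 2.25%). Among members past the fold rule explained further on, and with an entry, the run stood in 0 of 5 higher and 3 of 5 lower ones from E9.5 to P1, in 4 of 9 lower ones from E12.5 to P1 and in 1 of 2 higher ones from E9.5 to E12.5. These are counts of letters in short windows, and use of the start sites in these cells was not measured.

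All 11 cells with fewer than 2000 detected genes were P1 cells, and 112 cells were kept, 41 of them from P1. Their totals ran from 69522 to 7711355 counts, with medians of 415428 in the E9.5 C set, 3151946 in N530, 389394 in the E12.5 C set, 4895288 in N523 and 149078 at P1. Pooled sums therefore lean on the deep cells, since N530 held 94.5% of the E9.5 counts and N523 82.7% of the E12.5 counts. All 12 cardiomyocyte markers had counts at each age and pooled to 69760 counts per 1000000 (CPM) at E9.5, to 45497 at E12.5 and to 84133 at P1. By set these markers had 29540 CPM in the E9.5 C set and 72116 in N530, and 42964 in the E12.5 C set and 46164 in N523, so E9.5 was below E12.5 within set C. Markers of endothelial, fibroblast, epicardial, smooth muscle, erythroid and macrophage cells each pooled to 242 CPM or less at every time point, but single cells held far more. Only 5 kept cells, 4 at E9.5 and 1 at P1, had under 5000 CPM of cardiomyocyte markers, and their summed member CPM ran from 23843 to 51269. The P1 cell among them had 7998 CPM of endothelial markers, 1 E9.5 cell had 1960 CPM of these, and another had 1744 CPM of smooth muscle markers. Cells outside these 5 held such markers too. In N530, 1 cell had 4007 CPM of fibroblast markers, another 2695 of epicardial and another 1246 of endothelial ones, beside 93056, 53444 and 83478 CPM of cardiomyocyte markers. Without the 5 cells, and with these 3 still included, the log2 ratios of the summed members given next were 0.43 from E9.5 to E12.5, 0.09 from E9.5 to P1 and −0.33 from E12.5 to P1. All but 1 of the 4 E9.5 cells among the 5 belong to set C. The values by naming set were not recomputed without them.

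The family took 2.34% of all gene counts at E9.5, then 3.09% at E12.5 and 2.48% by P1. A CPM is a share of the counts of a cell, and the amount of RNA per cell was not measured. Summed over the 86 members, pooled CPM was 23384 at E9.5 (95% Poisson interval 23355 to 23414), 30910 at E12.5 (30862 to 30959) and 24839 at P1 (24720 to 24957). These intervals cover the counting of reads only. By naming set the E9.5 sum was 27869 in C and 23122 in N530, and the E12.5 sum was 33556 in C, 30449 in N523 and 26153 in the lone E12-5b cell. In pooled CPM the E12.5 sum was thus above the E9.5 sum in every combination of sets, with a log2 ratio of 0.40 and a range of 0.13 to 0.54 (SD over combinations 0.18). From E12.5 to P1 the log2 ratio of the sums was −0.32, between −0.43 and −0.29 over the sets (SD 0.10). Between P1 and E9.5 the sums differed by less than the spread between sets, with a log2 ratio of 0.09 (SD 0.19) that was −0.17 against set C and 0.10 against N530.

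In TPM, the transcript abundance that divides by gene length, the mean sum per cell was 61251 in the E9.5 cells, 76161 in those of E12.5 and 52576 in those of P1. On this scale P1 was the lowest of the 3 time points, with log2 ratios of −0.22 to E9.5 and −0.53 to E12.5. The E9.5 sets bracketed wide values in TPM as well, at 72128 in C and 55812 in N530. The mean of the E12.5 N523 set (65947 TPM) lay below that of the E9.5 C set, a log2 ratio of −0.13. By mean TPM the order of E9.5 and E12.5 thus turned in 1 of the 4 combinations of sets. The medians of these 2 sets, 67861 in N523 and 63782 in C, had E12.5 above E9.5. The E9.5 C mean includes cells with under 5000 CPM of cardiomyocyte markers, at 134572, 93555 and 69692 TPM. It was not recomputed without them. Over the 4684 genes at 50 CPM or more the median log2 ratio from E9.5 to P1 was −0.60, and over the 73 members at that level it was −0.06. From E9.5 to E12.5 these medians were −0.20 over all genes and 0.38 over the members, and from E12.5 to P1 they were −0.32 and −0.39. These medians depend on the scaling and on the cells. TMM factors, which scale each time point by the bulk of its genes, moved every log2 ratio by 0.43 from E9.5 to E12.5, by 0.17 from E9.5 to P1 and by −0.26 from E12.5 to P1. The E9.5 to E12.5 median over all genes thereby turned from −0.20 to 0.23, beside 0.81 over the members. Within set C the medians from E9.5 to P1 were −0.26 over all genes and −0.26 over the members, so there the members did not stand above genes in general.

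Cells of 1 age were widely spread. The summed CPM per cell ran from 7493 to 55896 around a median of 21538 at E9.5 (SD 11172, n = 42 cells). E12.5 cells lay between 13252 and 50802 with a median of 33310 (SD 8799, n = 29 cells). Of the 3 ages the kept P1 cells were the most even, from 14297 to 40489 with a median of 23745 (SD 5812, n = 41 cells). They belong to a single naming set, and the 8 N523 cells alone had an SD of 4449. The 11 P1 cells under the gene minimum ran from 13461 to 53252 (SD 12159). The ages overlapped throughout. The lowest values came from N530 cells, whose median of 16778 was below the 23476 of the E9.5 C cells, and 5 of the 20 E12.5 C cells, at 13252 to 20869, lay apart from the rest, which began at 30463.

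**Figure D1:**
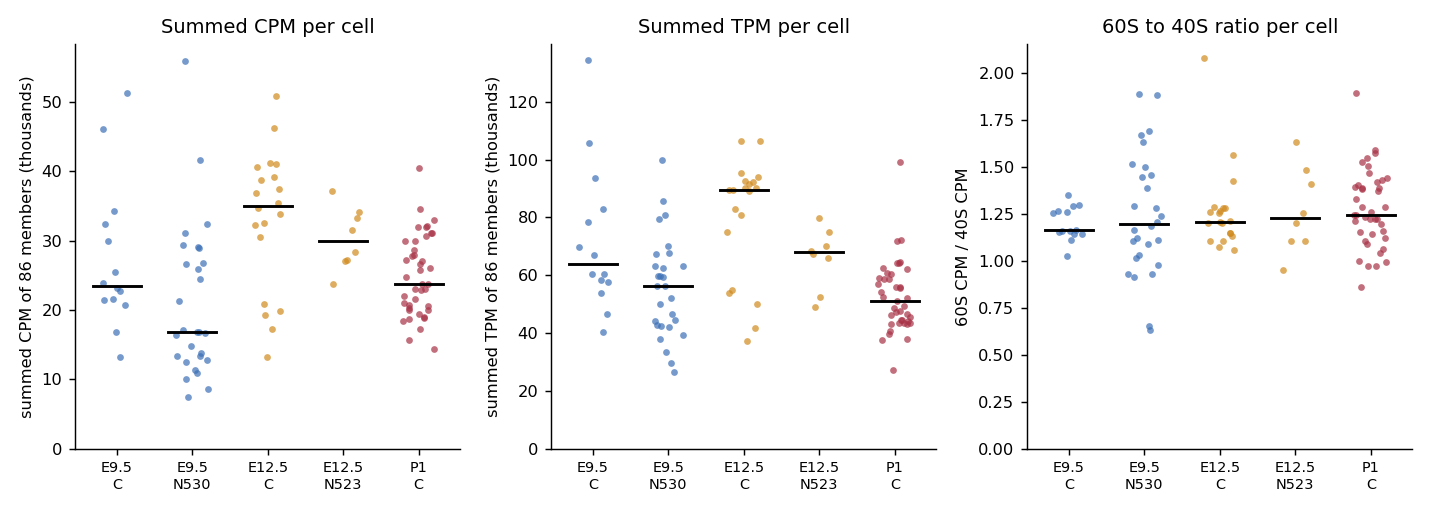
Summed CPM (left), summed TPM (middle) and ratio of 60S to 40S CPM (right) of the ribosomal protein genes in each kept cell, by time point and naming set; each point is 1 cell and the bar is the median. The E12.5 C cells have the highest median CPM (35004) and the N530 cells the lowest (16778), and the median 60S to 40S ratio lies between 1.16 and 1.25 in each of the 5 sets drawn.

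The 2 subunits kept step. The ratio of canonical 60S to 40S CPM had a median of 1.18 at E9.5, then 1.20 at E12.5 and 1.25 by P1. Single N530 cells spread from 0.633 to 1.89, while the 14 cells of the E9.5 C set stayed between 1.02 and 1.35. Across cells within a set the 40S and 60S sums rose and fell together, with Spearman's rho from 0.81 in N523 (8 cells) to 0.96 in the E9.5 C set (14 cells). These correlations describe cells that share a library preparation and a common total. The rank order of the members was also much alike between sets, with rho of 0.85 to 0.96 over the 86 members for all pairs of sets.

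A median of 76.5 of the 86 members was found in an E9.5 cell, 78 in an E12.5 cell and 70 in a P1 cell. After thinning every cell to 100000 counts, which left out 3 shallow P1 cells, the medians were 74.5 in the E9.5 C set, 65 in N530, 75 in the E12.5 C set, 77 in N523 and 69.5 at P1. The N530 median was thus the lowest, but its cells ran from 45 to 81 members, a range that spans those of the other sets. The thinned cells still differed in how many genes of any kind they held, with medians of 4155 in the E9.5 C set, 3072 in N530 and 2841 at P1.

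Levels are compared between members per length, in TPM. Rpl41, which encodes a very short basic peptide of the 60S subunit, had the highest mean TPM at each time point, with 4196 in E9.5 cells, 5368 in E12.5 cells and 3153 in P1 cells. Rps14, a 40S protein of the platform near the decoding site, came second with 3166, 3413 and 2443 TPM. At P1 Rps25 (2017 TPM) and Rpl7 (1897) were also among the leading members. The median member had 458 TPM at E9.5, then 695 at E12.5 and 420 by P1.

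The stalk members, Rps6, Rpl5, Rpl11 and Rpsa stayed under 2-fold in pooled CPM in each comparison of ages. The stalk proteins, which recruit the elongation factors, were highest at E12.5. Rplp0 went from 906 to 1463 CPM by E12.5 and was at 1116 by P1, Rplp1 had 266, 417 and 236, and Rplp2 had 256, 432 and 269. Rps6, the substrate of S6 kinase, had 238, 409 and 260 CPM. Rpl5, which with Rpl11 and the 5S rRNA can hold back Mdm2, had 299.6, 427 and 248 CPM, and Rpl11 had 89.3, 91.7 and 107. Rpsa, also known as the laminin receptor, differed more between naming sets than between ages, with 1080 CPM in the E9.5 C set, 509 in N530, 1117 in the E12.5 C set, 602 in N523 and 949 at P1. Rps3, Rplp0, Rpl4, Rpsa and Rps4x had the highest SD over all cells on the scale of ln(1 + counts per 10000), at 0.74 to 0.80.

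Single members were compared by 1 rule: at least 2-fold between 2 time points in pooled CPM, at least 50 CPM in the higher one, and the same direction in every combination of naming sets. From E9.5 to E12.5, 2 of 75 members at that level were higher and 0 were lower, against 11.2% and 18.9% of 4863 genes. With TMM factors 17 of 75 members were higher and 0 were lower, beside 21.4% and 10.1% of all genes. Rpl7l1, a paralog of Rpl7 with a role in making the large subunit, had a log2 ratio of 1.55, which dropped to 0.92 without 1 N523 cell. Rpl38, a 60S protein known for its part in translating Hox mRNAs, went from 48.4 to 98.2 CPM, a log2 ratio of 1.02 that fell under the fold without any 1 of 15 cells. Rps7 (0.88), Rpl31 (0.87) and Rps29 (0.85) were next and under the fold. In all, 29 members were higher in every combination and 3 were lower (57 and 2 with TMM factors). Rpl10a, a protein of the mobile L1 stalk, was one that went against the sum, with a log2 ratio of −0.29 that turned to 0.14 with TMM factors. Rpl34 did so at a level of a few CPM, from 4.32 to 0.495 CPM.

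From E9.5 to P1, 9 of 73 members were at least 2-fold higher (12.3%) and 7 were lower (9.59%), beside 16.6% and 35% of all genes. Both counts lay below the shares of all genes. Among those higher at P1 were the 60S genes Rpl9 (log2 ratio 2.03), Rpl24 (1.94), Rpl29 (1.62), Rpl23a (1.18), Rpl36 (1.06) and Rpl6 (1.06), the 40S gene Rps4x (1.00), and Rpl7l1 (1.49). Lower at P1 were the 40S genes Rps27a (−2.98), Rps29 (−1.38) and Rps23 (−1.03) and the 60S genes Rpl27a (−1.83), Rpl37a (−1.62), Rpl12 (−1.61) and Rpl10a (−1.20). By subunit, 2 of 28 measured 40S members were higher and 3 lower, and 6 of 40 measured 60S members were higher and 4 lower. The higher group rested largely on the N530 cells, since within set C only Rpl29 passed the fold, and in TPM 4 of the 9 did. The lower group held better, with 4 of 7 past the fold within set C and 7 of 7 in TPM. Without 1 P1 cell Rpl6 fell to 0.98, Rps4x and Rps23 lay at the threshold and were lost without any 1 of 31 and 23 cells, and Rpl12 fell under 50 CPM without 1 N530 cell (−1.26).

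**Figure D2:**
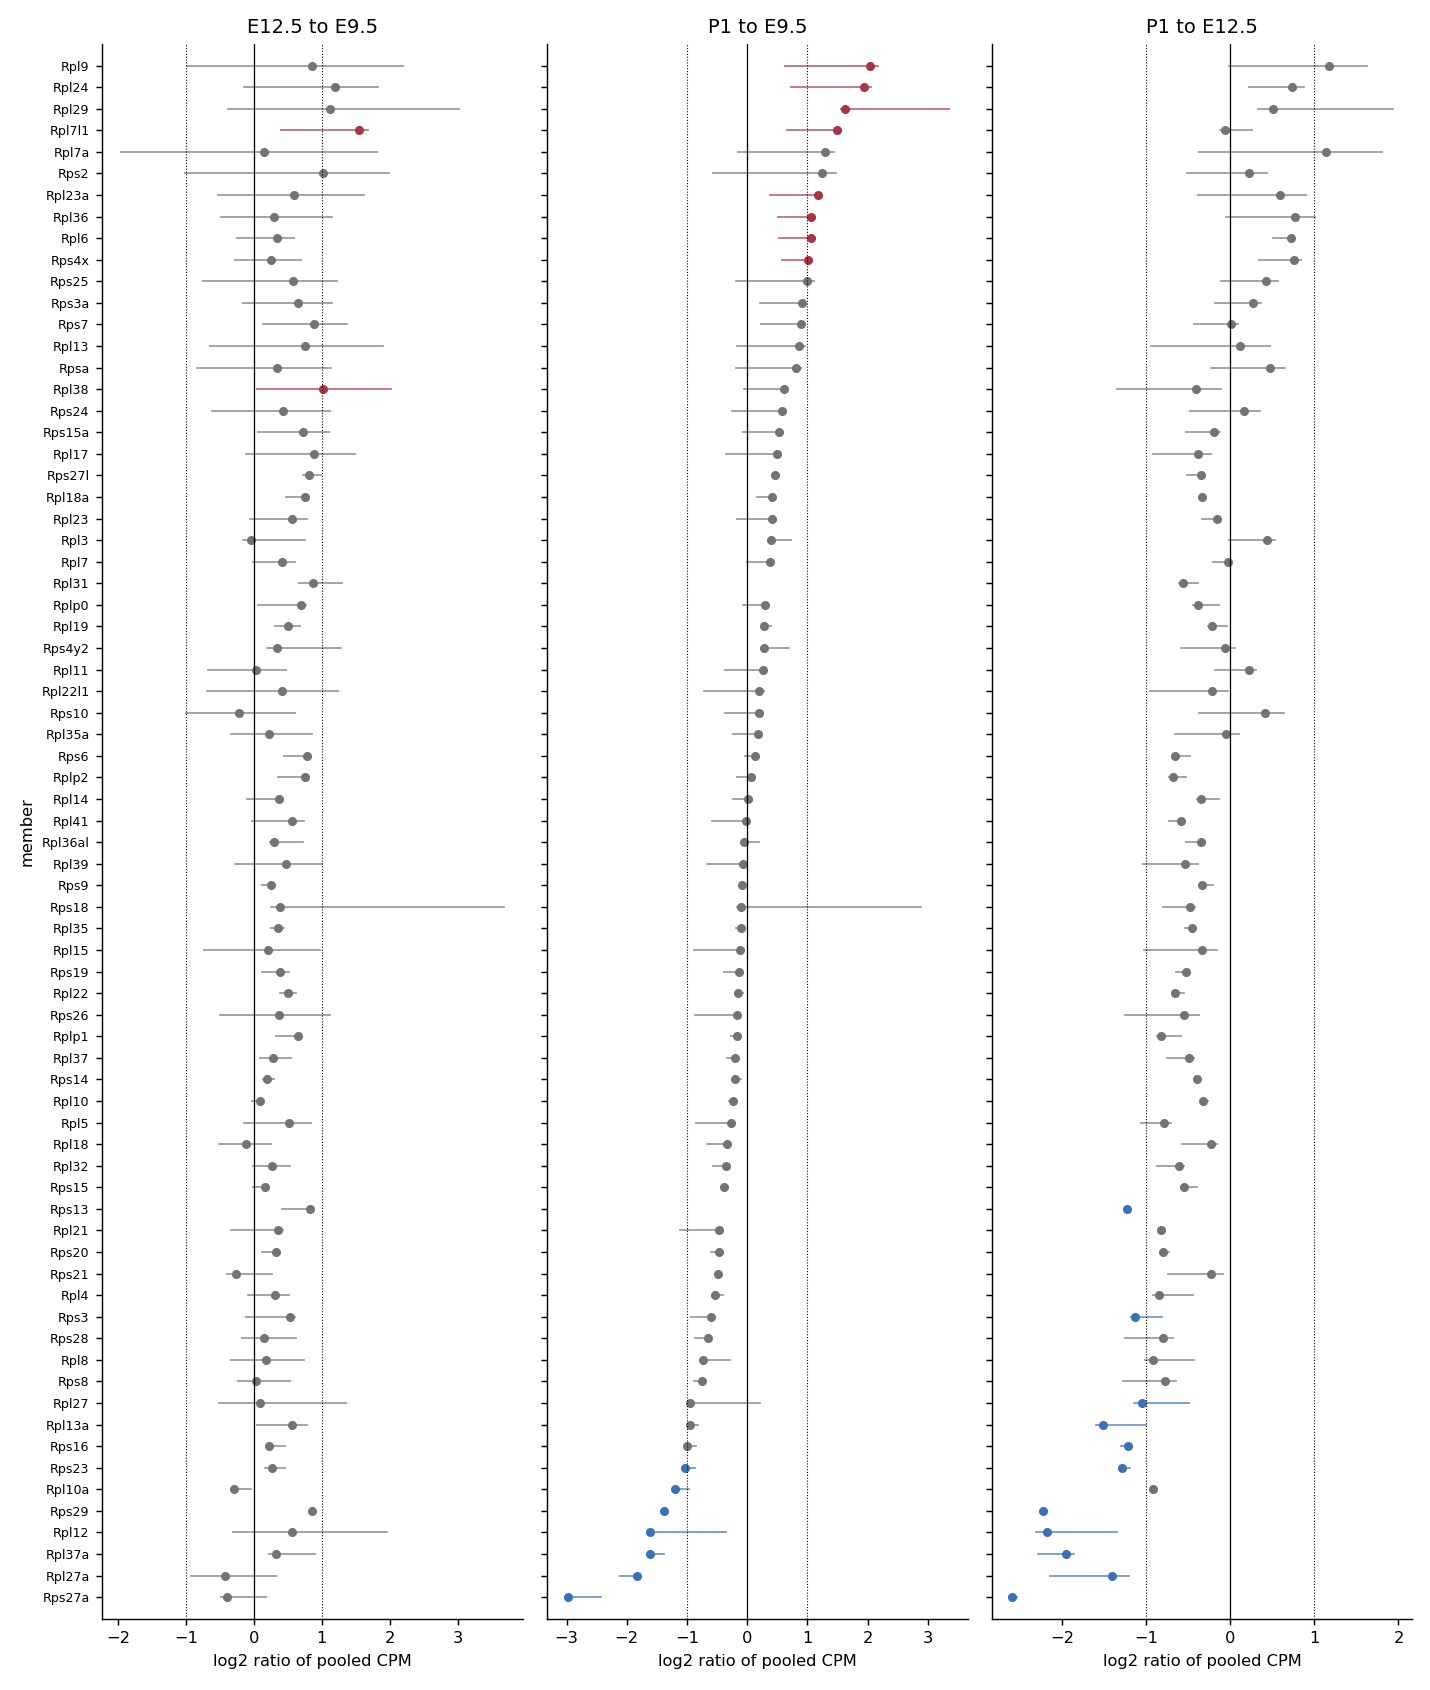
Log2 ratio of pooled CPM for members at 50 CPM or more in at least 1 comparison, for E12.5 to E9.5, P1 to E9.5 and P1 to E12.5; points are the ratio over all kept cells, lines run from the lowest to the highest combination of naming sets, dotted lines mark 2-fold, red is higher and blue lower by the fold rule. Members are sorted by P1 to E9.5, from Rpl9 (2.03) at the top to Rps27a (−2.98) at the bottom, and the right panel has 11 lower members and 0 higher ones.

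From E12.5 to P1, 0 of 75 members were higher and 11 were lower (14.7%), against 18.6% and 27.1% of 4180 genes. With TMM factors 0 of 75 members were higher and 21 lower, beside 13.2% and 34.5% of all genes. With totals that leave out structural and respiratory genes, 1 of 76 was higher and 9 were lower, beside 24.2% and 22.2%. The 11 lower members in pooled CPM were Rps27a (−2.59), Rps29 (−2.23), Rpl12 (−2.18), Rpl37a (−1.95), Rpl13a (−1.51), Rpl27a (−1.40), Rps23 (−1.29), Rps13 (−1.23), Rps16 (−1.22), Rps3 (−1.13) and Rpl27 (−1.05). Of these, 9 were past the fold within set C and 10 in TPM. Leaving out 1 N523 cell brought Rps13 to −0.93, Rps16 to −0.87, Rps3 to −0.92 and Rpl27 to −0.58. Over all members 56 were lower and 5 higher in every combination of sets. Against this run Rps4x (0.75), Rpl24 (0.74), Rpl6 (0.73) and Rpl29 (0.51) were higher at P1 in each combination, all under the fold. The comparisons with P1 share the same P1 cells, so members lower in both are not 2 independent observations.

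Rps27a, which encodes ubiquitin fused to a 40S protein of the head, had the largest ratio among the lower members. It was found in all 14 cells of the E9.5 C set (10.2 to 264 CPM, median 64.2) and in all 28 N530 cells (2.1 to 498, median 126). At E12.5 it was found in 19 of 20 C cells (median 82.4 CPM) and in all 8 N523 cells (27.6 to 135, median 120). At P1 it was found in 22 of 41 cells, with a median of 8.06 and a highest value of 189 CPM. Every embryonic set thus had a higher median than the P1 cells, although the ranges overlapped. Pooled, Rps27a went from 134 CPM at E9.5 through 102 at E12.5 to 17.0 at P1 (95% Poisson interval 14.1 to 20.4).

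Fau, whose product is a ubiquitin-like protein fused to a 40S protein, was lower at P1, at 144 CPM for E9.5, 141 for E12.5 and 38.4 for P1 (P1 to E9.5 log2 ratio −1.91). Gnb2l1, the 40S scaffold also called Rack1, had 705, 1320 and 615 CPM. In set C the 3 listed ribosomal proteins outside the naming rule, Fau and Gnb2l1 among them, summed to 1189 CPM at E9.5 and 1150 at E12.5. In N530 and N523 they summed to 1017 and 1908.

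Rps29, a zinc-binding protein of the 40S head, varied little across naming sets. Pooled CPM was 107 in the E9.5 C set and 110 in N530, then 197 in both E12.5 sets, and 42.2 at P1, where it was found in 28 of 41 cells with a highest value of 139. Rpl37a, a zinc-binding 60S protein, had 135 and 161 CPM in the E9.5 sets, 253 and 189 in the E12.5 C and N523 sets, and 51.9 at P1. Rpl27a had 105 and 84.8, then 107 and 55.5, and 24.2 CPM at P1, where 20 of 41 cells held it. Rpl12, at the base of the stalk, was lower in set C from the start (25.2 CPM at E9.5, 50.5 at E12.5) than in N530 (62.7) and N523 (97.9), and had 19.8 CPM at P1. Rps12, under the level rule, had 26.8, 26.1 and 4.25 CPM and was found in 6 of 41 P1 cells. P1 cells were also the shallowest, and the part of depth in the number of cells without a given member was not tested, whereas pooled CPM divides by the total.

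At P1, Rpl10a passed the fold as lower only against E9.5, Rpl13a only against E12.5, and Rps23 against both. Rpl10a was found in 34 of 41 P1 cells and had 157 and 186 CPM in the E9.5 C and N530 sets, 152 in each E12.5 set and 80.2 at P1, so its embryonic sets lay close together and P1 lay below them. Rps23, a 40S protein at the decoding centre, had 167 and 187, then 209 and 228, and 91.4 CPM at P1, where it was found in 31 of 41 cells. Rpl13a, a 60S protein also known for silencing inflammatory mRNAs, was found in all 41 P1 cells (26.7 to 562 CPM, median 177) and had 324 and 359 CPM at E9.5, 370 and 559 at E12.5, and 185 at P1. P1 was the lowest set for each of these 3 genes.

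Rpl6 and Rps4x had more pooled CPM at P1 than in each embryonic set. Rpl6, a 60S protein, had 335 and 226 CPM in the E9.5 C and N530 sets, 341 and 283 at E12.5, and 484 at P1. Rps4x, a 40S protein encoded on the X chromosome, had 548 and 398, then 642 and 453, and 815 at P1. Cells overlapped widely for both, as the N530 cells ran from 0 to 1736 CPM for Rps4x and the P1 cells from 26.7 to 2041.

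Rpl9, a 60S protein near the factor-binding site, showed why the naming sets must be kept apart. Its pooled CPM was 356 in the E9.5 C set, 122 in N530, 559 in the E12.5 C set, 179 in N523 and 551 at P1. Within E9.5 the 14 C cells ran from 123 to 654 CPM (median 336) and the 28 N530 cells from 0 to 344 (median 78.0), while the P1 median was 521. C cells were higher than N cells at both embryonic ages, and within set C the P1 to E9.5 log2 ratio was 0.63 in place of 2.03. Rpl24, a 60S protein that touches the small subunit, had the same layout, at 232 and 92.1 CPM at E9.5, 328 and 210 at E12.5, and 383 at P1.

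Rpl29, a surface protein of the 60S subunit, was the higher member that did not depend on the N530 cells. It had 20.9 CPM in the E9.5 C set (found in 9 of 14 cells, median 3.70) and 72 in N530 (23 of 28 cells, median 37.3). At E12.5 it had 55.5 CPM in C and 169 in N523, and at P1 213 CPM, found in 40 of 41 cells with a median of 205. P1 was highest in every combination, with log2 ratios of 1.56 to 3.35 against E9.5 and 0.33 to 1.94 against E12.5, and in TPM they were 1.79 and 1.26. Here the N sets were above the C sets, the reverse of Rpl9. Of its 75-base windows 42.6% were unique, and the rest were shared with 45 other genes in all.

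Rps18, a 40S head protein, differed more between the 2 sets of E9.5 cells than between any pair of ages over all cells. The 14 C cells of E9.5 held 19.4 to 131 CPM (median 63.4) and the 28 N530 cells 35.5 to 1368 (median 420.0). At E12.5 the C cells had a median of 792 and the N523 cells 494, and the P1 cells had 389 with a range of 66.6 to 925. Pooled, the E9.5 C set had 61.5 CPM, against 454 to 790 in the other sets of at least 6 cells and 339.9 in the lone E12-5b cell. Over all cells the P1 to E9.5 log2 ratio was −0.10, and within set C it was 2.88. At this age 8 members were at least 2-fold higher in C than in N530 and 4 were lower, of 74, against 20.1% and 25.6% of 4865 genes. At E12.5, C against N523, 9 were higher and 1 was lower of 76, beside 31.8% and 26.1% of all genes.

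**Figure D3:**
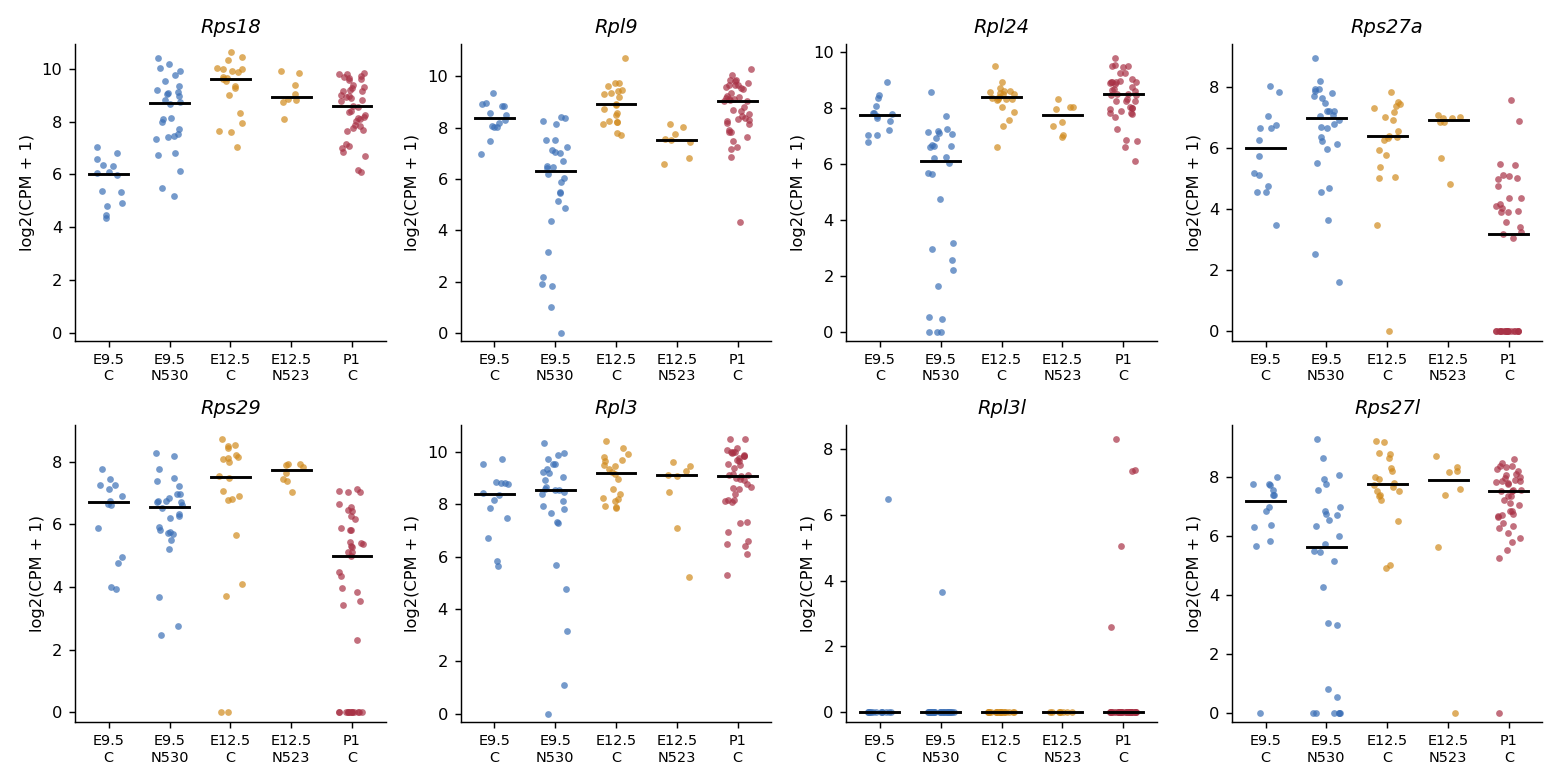
Level in each kept cell, as log2(CPM + 1), of Rps18, Rpl9, Rpl24, Rps27a, Rps29, Rpl3, Rpl3l and Rps27l, by time point and naming set, with the median as a bar. The E9.5 C cells have the lowest median of Rps18 (63.4 CPM), although single cells of other sets reach down into their range of 19.4 to 131 CPM, Rps27a and Rps29 are at 0 in many P1 cells, and Rpl3l is at 0 in all but 7 cells.

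Some canonical members were hardly counted at all. Rpl26 was at 0 in every kept cell, as were the paralogs Rpl10l and Rpl39l. Rpl30 had 3.26 CPM at E9.5 and at E12.5 2.63, Rpl34 had 4.32 and 0.495, and Rps27 had 0.0594 and 0.119, and all 3 were at 0 at P1. In total 6 members were under 10 CPM and 11 under 50 CPM at every time point. These are core proteins of every ribosome, so a count near 0 is not read here as missing expression. Of the 75-base windows along their transcripts, 42.5% in Rpl26, 26.0% in Rpl30, 73.3% in Rpl34 and 1.48% in Rps27 occurred in no other gene of the reference annotation. The -ps symbols, which were not members, had 17.0 to 179 CPM over the sets.

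Rps27l, by contrast, was abundant where Rps27 was not, with 126, 221 and 173 CPM, and it held 99.8% of the pair's TPM at E9.5 and E12.5. This share rests on the near absence of counts for Rps27, and 91.2% of the Rps27l windows were unique. Rpl22l1 and Rpl36al also held most of their pairs per length, 70.9% to 74.6% and 69.3% to 73.4% over the time points. By naming set the shares were wider, from 55.9% (N523) to 79.8% (E9.5 C) for Rpl22l1. For Rpl36al they ran from 66.6% (N530) to 81.5% (N523). Of the windows, 15.4% in Rpl36a and 38.7% in Rpl36al were unique. Rps4y2, a paralog of Rps4x, held 16.4%, 22.9% and 13.8%, while Rps4x had 406, 483 and 815 CPM. Rpl7l1 held 2.50%, 3.97% and 4.96% beside Rpl7.

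Rpl3l, the muscle paralog, was found in few cells of any age. It had counts in 2 of 42 cells at E9.5 (41 and 37 counts), in 0 of 29 at E12.5, and at P1 in 5 of 41 (1, 6, 20, 36 and 104 counts). The P1 share of cells with a count was 12.2% (exact 95% binomial interval 4.08% to 26.2%), and 0 of 29 cells allows up to 11.9% at E12.5. These limits cover the counting of cells only, and the shares were not compared because the P1 cells were shallower and each age is 1 sample. Pooled CPM was 0.772 at E9.5 and 24.5 at P1, where a single cell held 62.3% of the Rpl3l counts. Per length, Rpl3l made up 0.492% of the pair at E9.5 and 2.21% at P1.

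Its parent Rpl3, a 60S protein at the peptidyl transferase centre, had 470 CPM at E9.5, then 457 at E12.5 and 619 by P1. Within set C it had 372, 625 and 619, so Rpl3 was not lower at P1 than at E9.5 in either. In the 5 P1 cells with Rpl3l the median of Rpl3 was 574 CPM, against 524 in the other 36. In 1 of the 5 Rpl3l (160 CPM) exceeded Rpl3 (96.3 CPM). Among elongation factors the muscle and neuron form Eef1a2 had counts in 2 of 42 E9.5 cells (0.267 CPM pooled), in 15 of 29 E12.5 cells (6.98 CPM) and in 20 of 41 P1 cells (23.8 CPM). Its widely expressed partner Eef1a1 was found in every kept cell, with 3396, 5541 and 5016 CPM. Within set C it had 6211, 6532 and 5016 CPM, so P1 was above E9.5 in pooled CPM and below it in set C, while N530 had 3231 CPM.

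The genes around the ribosome did not all move with its proteins. Of 42 ribosome biogenesis genes, 28 were at the level rule between E9.5 and P1, of which 2 were higher and 17 lower (60.7%, against 35% of all genes), and their sum had a log2 ratio of −1.12. The nucleolar proteins Npm1 and Ncl led this list, with Npm1 at 1592, 1218 and 643 CPM and Ncl at 716, 513 and 315 CPM. In pooled CPM the sum of the list was already lower at E12.5 than at E9.5 (−0.43, from −0.70 to −0.19 over the sets). The ribosomal protein sum was higher there. TMM factors moved every log2 ratio between these 2 ages up by 0.43, the size of this fall, so the fall depends on the scaling. Of 36 translation factors at the level rule, 2 were higher (5.56%) and 5 lower (13.9%) from E9.5 to P1, with a sum at 0.05. Both shares lay below the 16.6% and 35% of all genes. Of 11 growth control genes, 0 were higher and 6 lower (54.5%, against 35% of all genes). Igf2 was among the lower ones at 915, 622 and 322 CPM.

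Across the cells of 1 set the ribosomal protein sum went with the biogenesis sum unevenly. Spearman's rho was 0.92 in the E9.5 C set, 0.16 in N530, 0.56 in the E12.5 C set, −0.95 in the 8 cells of N523 and 0.45 at P1. With translation factors rho was 0.94, 0.56, 0.77, 0.60 and 0.44 in the same order. These are descriptions over cells that share a total and differ in depth.

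Ribosomal protein genes have many processed copies in the genome, so the reads of several members can fit elsewhere. For 85 members with an entry the median share of 75-base windows in no other annotated gene was 54.1%, with 38 members under 50% and 5 at 100%. Members at 50% or more had a P1 to E9.5 log2 ratio of their sum of −0.12, and those under 50% had 0.50. From E12.5 to P1 the values were −0.52 and 0.08, and 3 of 41 members at 50% or more and 16 of 33 under 50% had a ratio above 0. From E9.5 to E12.5 both groups gave nearly the same ratio, 0.40 and 0.42. By set, the P1 to E9.5 values were −0.33 and 0.13 against set C and −0.11 and 0.53 against N530, on opposite sides of 0 in both. The P1 to E12.5 values were −0.52 and 0.17 against N523, and only against the E12.5 C set were both groups lower at P1 (−0.52 and −0.29). Members under 50% took 30.9% of the family's counts in the E9.5 C set, 28.3% in N530, 34.3% in the E12.5 C set, 27.6% in N523 and 38% at P1. Rpl9 (8.73% unique), Rpl24 (19.1%) and Rps18 (22.2%) were among the less unique members, as was Rps27a (32.5%), while Rps29 (69.3%), Rpl27a (65.6%) and Rpl37a (73.3%) were above the median. The 9 members past the fold higher from E9.5 to P1 had a median unique share of 29.1%, against 52.1% for the 7 lower ones and 54.1% over all members with an entry. The part of read assignment in these differences was not tested.

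**Figure D4:**
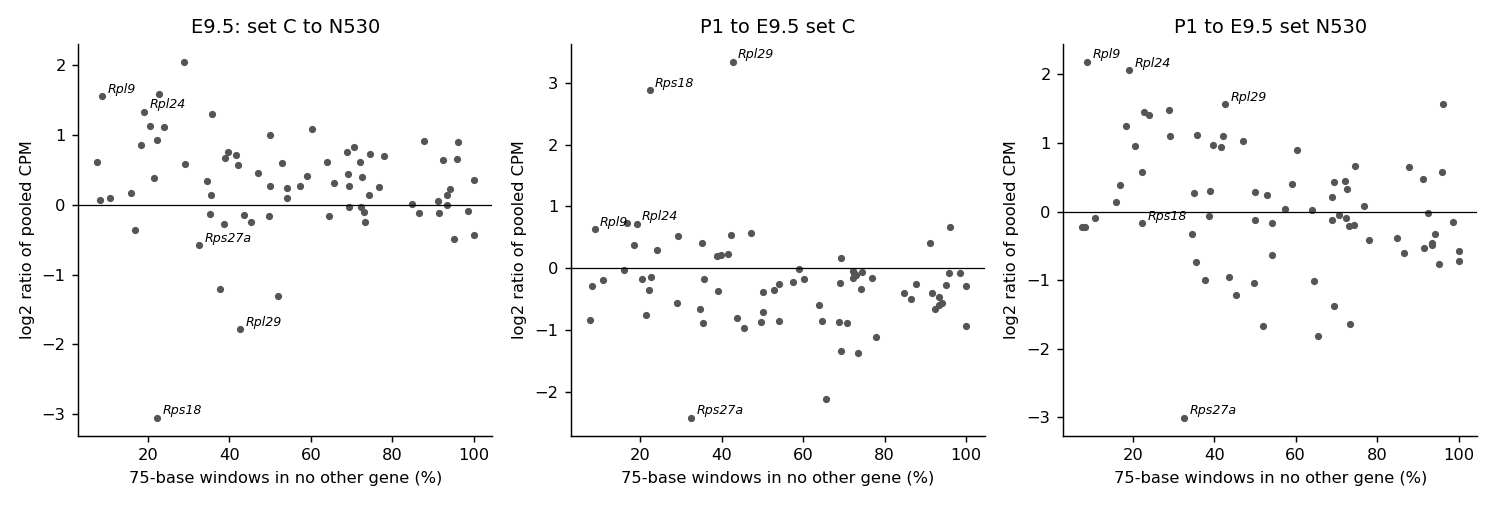
Log2 ratio of pooled CPM against the percent of 75-base windows that occur in no other annotated gene, 1 point per member at 50 CPM or more in either group, for E9.5 set C to N530 (left), P1 to E9.5 set C (middle) and P1 to E9.5 set N530 (right). Rpl9 (8.73%) and Rpl24 (19.1%) lie high where N530 is compared, and Rps18 (22.2%) lies far from 0 where the E9.5 C set is.

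**Figure D5:**
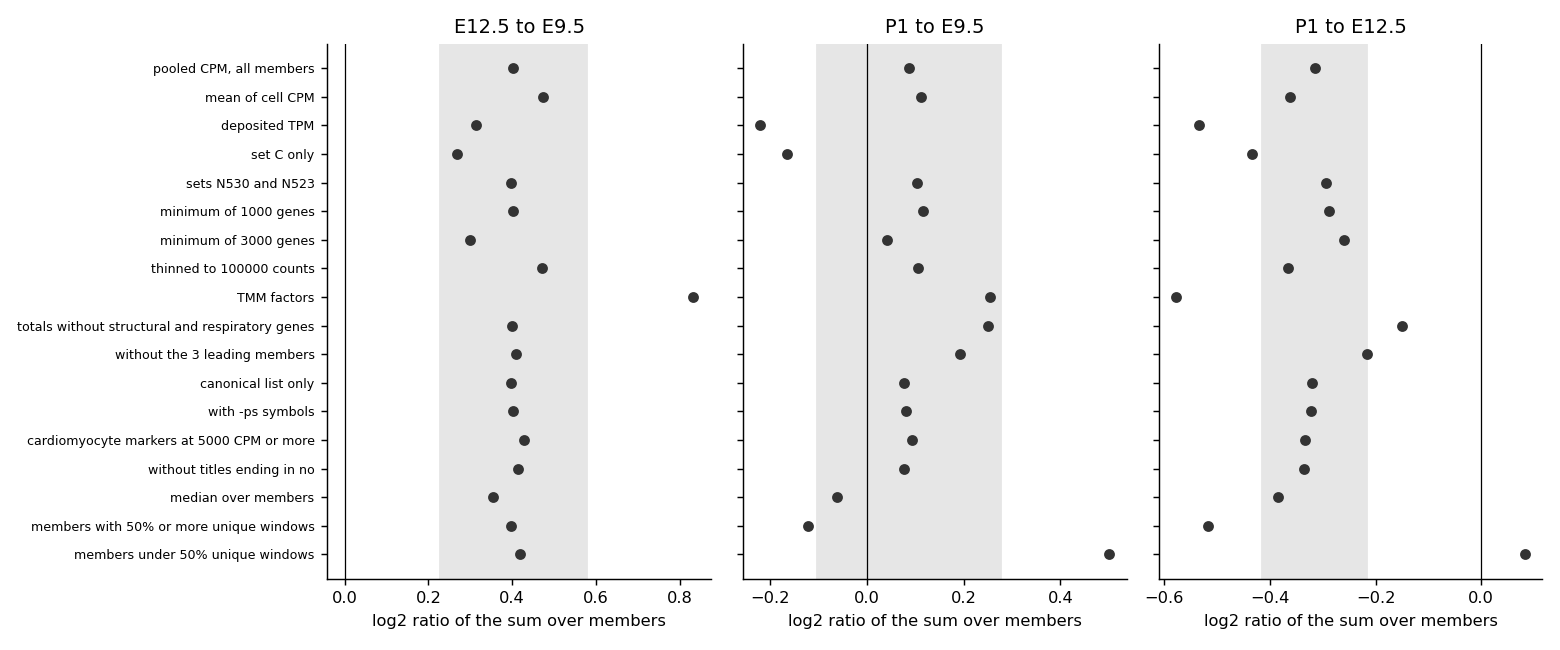
Log2 ratio of the sum over members for the 3 pairs of time points under each way of computing it; the shaded band is the value from pooled CPM plus and minus 1 SD over the combinations of naming sets. E12.5 to E9.5 stays above 0 throughout, P1 to E9.5 lies on both sides of 0, and P1 to E12.5 is below 0 except for members under 50% unique windows (0.08).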

How the data were processed

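Single cells were sorted for GFP, captured on Fluidigm C1 chips and turned into cDNA by SMART-Seq V4, and 75-base single reads were taken. Reads were mapped with OLego to the mouse genome and assigned to genes with featureCounts (the submitters' processing notes name GRCm38 and mm10), and the authors deposited raw counts per gene and TPM per gene for 123 cells. How reads that fit several genes were handled is not given in the sources used here, nor whether strand was used. No molecular identifiers were used, so the counts are of amplified reads. The Poisson intervals cover the counting of reads only, and neither that of molecules nor the spread between cells.

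The members, gene lists, naming sets and alternatives were chosen with earlier results of these data known. A cell was kept if at least 2000 genes had a count. Counts were summed over cells and divided by the summed totals (pooled CPM), and the deposited TPM were averaged over cells. With 1 sample per time point no test was run. The fold rule (2-fold, 50 CPM, same direction in every combination of naming sets of 6 or more cells) was applied to all 23337 symbols. Poisson and Clopper-Pearson 95% intervals and a floor of 3 counts were used. Genes named in the text were the leading members by TPM, ratio or direction against the sum, those with the highest SD, the paralogs with their parents, the stalk and signalling members, and the leading genes of each list. The split of Rps18 at E9.5, Rpl26, Rpl30, Fau, Gnb2l1 and the remaining members past the fold rule were singled out after their values were seen. Unique windows are 75-base stretches of a gene's annotated transcripts found in no other gene. The steps were tested on simulated counts. Alternatives were the unit, naming set, gene minimum, depth, edgeR 4.0.16 TMM factors, totals, member list, fold and level. Python 3.11.15, pandas 2.3.3 and scipy 1.17.1 were used. The values of a few genes are not reported here.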

Additional observations from a re-analysis of the deposited data

Results flagged for a closer look

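The 11 P1 cells under the minimum of 2000 genes, which entered no comparison, held 21449 counts of the members of 714929 in all, a pooled sum of 30001.6 CPM (95% Poisson interval 29601 to 30406), above the 24839 CPM of the 41 kept P1 cells. This excess rests on 1 cell, which held 7941 of these counts at 53252 CPM, and without it the other 10 pooled to 23874 CPM (23473 to 24280), below the kept cells. The 11 cells were looked at because they lie outside the main measurement. Their single-cell sums started at 13461 CPM and had a median of 20577, below the kept cells' median of 23745, and the cause was not tested.

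The symbols marked -ps, left out of the members, held 20943 counts in kept cells, flagged as signal outside the main measurement. Their summed level was 44.2 CPM in the E9.5 C set, 133 in N530, 39.2 in the E12.5 C set, 179 in N523 and 17.0 at P1, so it was higher in both N sets than in set C of the same age.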

How the results depend on the processing

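No paired analysis was possible because each time point is 1 sample, the labels give no shared replicate numbers and the results come from no test. The log2 ratio of the summed members was 0.83 from E9.5 to E12.5 with TMM factors (0.40 in the report). From E9.5 to P1 (0.09) it was −0.22 in TPM, −0.17 in set C, −0.12 for members with 50% or more unique windows and 0.50 for those under 50%. From E12.5 to P1 (−0.32) it was −0.53 in TPM, −0.43 in set C, −0.58 with TMM factors, −0.15 with totals that leave out structural and respiratory genes, −0.22 without the 3 members with most counts, −0.52 for members with 50% or more unique windows and, in the opposite direction, 0.083 for those under 50%. The 2 splits by unique windows were added after the data were seen. The unit alone moved the median sum per cell, to 59591, 79655 and 51113 TPM at E9.5, E12.5 and P1, and the narrower totals moved the P1 median to 32278 CPM.

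Members past the fold, higher from E9.5 to E12.5 (2 in the report), were 4 by the mean of cell CPM, 7 in set C, 4 in N530 and N523, 1 at a minimum of 3000 genes, 4 when thinned to 100000 counts, 17 with TMM factors and 13 at a fold of 1.5, and those lower (0) were 2 with no minimum level. Higher from E9.5 to P1 (9) were 5 by the mean of cell CPM, 4 in TPM, 2 in set C and 14 with the narrower totals, and lower (7) were 12 in TPM and 15 at a fold of 1.5. Higher from E12.5 to P1 (0) were 4 with N530 and N523, 2 at 3000 genes, 3 at a fold of 1.5, and 1 each by the mean of cell CPM, in TPM, in set C, when thinned, with the narrower totals, at a level of 10 CPM and with no minimum level. Lower from E12.5 to P1 (11) were 21 with TMM factors and 26 at a fold of 1.5. Set beside all genes tested, the 17 of 75 with TMM factors and the 13 of 75 at a fold of 1.5 were no longer below the share of genes higher from E9.5 to E12.5 (21.4% and 14.7%), and neither were the 26 of 75 lower from E12.5 to P1 at a fold of 1.5 (33.3%), while the 21 of 75 lower with TMM factors stood beside 34.5%. Of 156 alternatives in all, 114 stayed within the spread or within 1.5 times the count. Some of these could not differ, since all P1 cells are in set C and a minimum of 1000 genes kept the same embryonic cells. Medians per cell were judged against the SD over cells, a wide band. The tally is therefore no measure of how firm the results are. P1 cells were the shallowest, at a median of 149078 counts, which limits what can be said of members under about 50 CPM there.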
